A study of Rattus norvegicus with 18 samples.

Results

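Kidneys of untreated diabetic rats were set against kidneys of healthy rats in 6 of the 18 RNA-seq libraries of the series. The DM group (3 libraries) came from male rats labelled diabetic, aged 23 weeks and given water, and the NC group (3 libraries) from male healthy rats of the same age, also given water. Neither group received plantain flour, whose effect on the diabetic kidney is the subject of the series. The same disease contrast can be read in 6 other libraries, HP (diabetic) and NH (healthy), from males of that age given a high dose of flour, which the design text puts at 4 g per kg for diabetic rats. The strain, the way diabetes was produced, and whether replicate libraries stem from separate animals are not stated in any source used here. A p-value therefore measures only how far libraries spread. For edgeR that is the spread within the groups of all 18 libraries, flour-fed ones included, unless a smaller fit is named. All 29 features of the deposited table were examined: 12 protein-coding genes of mitochondrial DNA, 16 nuclear genes and 1 unnamed feature. Their counts summed to between 4440262 and 4976154 in the DM libraries and between 8650150 and 9219671 in the NC libraries, sums that are not library depths. The lowest count of any feature was 14432 in these 6 libraries and 10521 in all 18, so no gene with low counts is listed. Percentages below describe the listed features, not all kidney RNA.

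Mitochondrial DNA encodes core subunits of respiratory complexes I, III and IV and of ATP synthase, and its genes are transcribed as long precursors that are cut into separate messengers. The other subunits of these complexes are encoded in the nucleus. The proximal tubule, which is rich in mitochondria, reabsorbs sodium, glucose, phosphate and amino acids, makes glucose, and draws its energy mainly from oxidative phosphorylation. The kidney label was checked against marker genes: 9 of 16 proximal tubule markers were among the listed features and 0 of 26 markers of other kidney cell types, immune cells and blood, so shares of those other cell types could not be followed. In whole kidney, fewer cells of a type and less RNA per cell cannot be told apart.

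Transcripts of mitochondrial DNA took a smaller part of the counts in DM kidneys. Among the counts of all 28 genes with a name, they made up 83.0, 82.0 and 83.3% in the 3 DM libraries, against 93.3, 93.1 and 92.7% in the 3 NC libraries. The groups did not overlap, and libraries of a group lay close together. The 95% Wilson interval of a single library was narrow, 82.9 to 83.0% in DM replicate 1, and covers counting error only. For each count of a nuclear gene there were 4.88, 4.55 and 5.01 mitochondrial counts in DM and 13.8, 13.6 and 12.6 in NC, a ratio 2.77 times lower in DM (log2 difference -1.47, SE 0.058). The two-sided exact permutation p was 0.1, the smallest that 3 against 3 libraries allow. The deposited sums of the compartments lay in opposite directions: the mitochondrial sum was 3914815 ± 268791 in DM against 8164353 ± 243761 in NC, and the nuclear sum was 813554 ± 22778 in DM against 613629 ± 47931 in NC (SD, n = 3 each). Without a library depth, a loss of mitochondrial transcripts and a gain of the listed nuclear ones cannot be told apart.

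**Figure D1:**
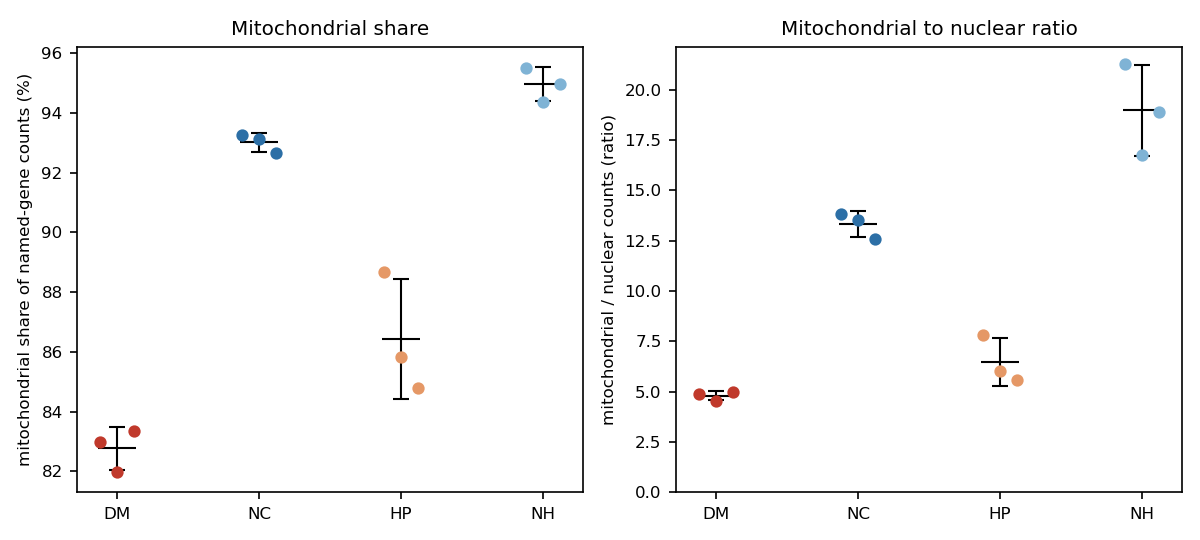
Mitochondrial share of the counts of the 28 named genes (left, percent) and ratio of mitochondrial to nuclear counts (right) in each library. Points are libraries, black bars the mean and SD of 3 libraries. The 3 DM libraries lie between 82.0 and 83.3% and the 3 NC libraries between 92.7 and 93.3%, and HP and NH, the flour-fed diabetic and healthy rats, are separated as well.

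Because that shift moves any value scaled to the library, each gene was also read relative to its own compartment: a mitochondrial gene against the geometric mean of the 12 mitochondrial genes of the same library, a nuclear gene against that of the 16 nuclear genes. Such a ratio does not depend on library size, but it moves with any change in the genes of the mean. In this reading 12 of 28 named genes differed between DM and NC (42.9%), 5 higher (17.9%) and 7 lower (25%), by edgeR's quasi-likelihood method with an adjusted p under 0.05 (Benjamini-Hochberg). Of these, 11 were nuclear and 1, COX2, was mitochondrial. The median log2 difference was 0.05 over the 16 nuclear genes and -0.02 over the 12 mitochondrial genes, the latter ranging from -0.27 to 0.21. Centring fixes the average of each compartment in advance, so medians this small are not a result about the genes.

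Shares of the respiratory complexes among mitochondrial counts lay close together in both groups. Complex I genes (ND1 to ND6 and ND4L) together made up 17.4% ± 0.19 of mitochondrial counts in DM and 17.5% ± 0.29 in NC, which differed by less than the spread between libraries. Complex IV genes (COX1, COX2 and COX3) made up 57.5% ± 0.11 in DM and 56.6% ± 0.51 in NC (SD, n = 3 each). These complex IV shares did not overlap, at 57.4 to 57.6% in DM and 56.0 to 57.1% in NC. CYTB, the subunit of complex III, made up 11.2% ± 0.27 in DM and 11.7% ± 0.36 in NC. ATP6, a subunit of the proton channel of ATP synthase, made up 13.9% ± 0.47 in DM and 14.2% ± 0.29 in NC.

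Within complex IV, COX2 fell relative to the mitochondrial mean and COX1 did not pass. COX2 (mitochondrial position 7006 to 7689), which carries the copper site that first takes electrons from cytochrome c, had a share of mitochondrial counts of 7.88, 8.03 and 7.77% in DM against 9.49, 9.58 and 9.31% in NC. All DM libraries were below all NC libraries (log2 -0.27, SE 0.050, edgeR adjusted p = 0.000168). COX1, the catalytic subunit, made up 35.1, 35.1 and 35.3% in DM against 32.9, 31.6 and 31.9% in NC, without overlap, but its difference did not pass (log2 0.12, SE 0.069, edgeR adjusted p = 0.226). It passed with compartment sums in place of geometric means (edgeR adjusted p = 0.0435) and when DM and NC were fitted alone (0.012). The ratio of COX2 to COX1 counts in a library was 0.225, 0.229 and 0.220 in DM against 0.289, 0.303 and 0.292 in NC, 1.31 times lower in DM. COX3, the other mitochondrial subunit of complex IV, had a ratio to COX1 of 0.412, 0.414 and 0.412 in DM against 0.446, 0.471 and 0.483 in NC.

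ND2, a membrane subunit of complex I, made up 5.76, 5.52 and 5.73% in DM against 6.17, 6.38 and 6.24% in NC. The DM libraries lay lower without overlap, and the difference missed the threshold (log2 -0.16, SE 0.065, edgeR adjusted p = 0.0591), which it passed when DM and NC were fitted alone (edgeR adjusted p = 0.00113). The other 9 mitochondrial genes had edgeR adjusted p-values between 0.236 and 0.911, and 3 of them, ND3, ND5 and ND6, passed as higher when DM and NC were fitted alone (0.00466, 0.0387 and 0.0286). ND3, a small membrane subunit, had the widest error in the fit of all 18 libraries (log2 0.21, SE 0.21). Its share of mitochondrial counts was 0.985% ± 0.074 in DM and 0.841% ± 0.044 in NC. The spread was wider in the flour-fed groups, at 0.914% ± 0.26 in HP and 0.873% ± 0.22 in NH (SD, n = 3 each). Shares did not overlap between the groups for 6 of the 12 mitochondrial genes and 14 of the 16 nuclear genes, 20 of 28 together (71.4%). ND6 is the listed mitochondrial gene on the opposite strand and overlaps the end of ND5. As the library kit does not mark strand, its counts (0.598% ± 0.043 of mitochondrial counts in DM and 0.537% ± 0.026 in NC) can include reads of the other strand.

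**Figure D2:**
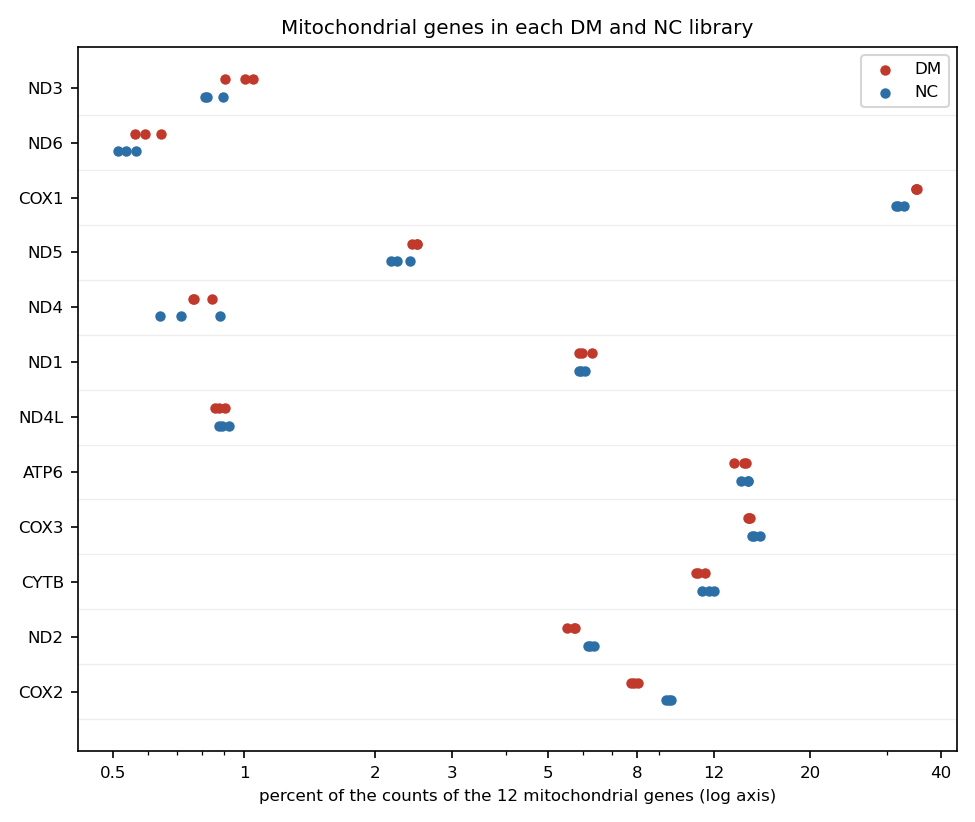
Each mitochondrial gene as a percent of the counts of the 12 mitochondrial genes (log axis) in the 3 DM (red, upper) and 3 NC (blue, lower) libraries, ordered by the DM to NC ratio. COX2 is at 7.77 to 8.03% in DM and 9.31 to 9.58% in NC, and the groups also do not overlap for COX1, COX3, ND2, ND3 and ND5.

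ND4, another membrane subunit of complex I, has to be read together with the unnamed feature. The deposited annotation places that feature on chromosome 20, at 19483978 to 19485846, and matches it to the ND4 protein. Its counts were 53129, 42566 and 28685 in DM against 111700, 93480 and 113316 in NC, and those of ND4 were 31132, 30394 and 31005 in DM against 57772, 70129 and 54065 in NC. Both had fewer deposited counts in each DM library than in any NC library, as did every other listed mitochondrial gene. Per kilobase of annotated length, ND4 stood at 22383 ± 286 counts in DM and 44017 ± 6104 in NC, and ND4L, which shares a messenger with ND4 in mammals, at 115760 ± 10491 in DM and 245653 ± 6962 in NC. Reads of a messenger with a near copy elsewhere can be split between both, so the level of ND4 is uncertain. Its mitochondrial-relative log2 difference was 0.07, and -0.14 with the counts of the unnamed feature added, and neither passed.

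Atp1b1 was higher in DM relative to the other nuclear genes. It encodes a beta subunit of the sodium pump, which exports sodium across the basolateral membrane and drives reabsorption along the nephron (chromosome 13, 82737159 to 82758004, minus strand, as deposited). Counts of Atp1b1 were 65111, 61172 and 62518 in DM against 20624, 19959 and 22443 in NC, and its share of nuclear counts was 7.77, 7.72 and 7.72% in DM against 3.53, 3.39 and 3.36% in NC. The DM libraries were alike and all above NC. Relative to the nuclear mean, Atp1b1 was 2.20 times higher in DM (log2 1.14, SE 0.053, edgeR adjusted p = 2.18e-12). The ratio of Atp1b1 to Slc34a1, a sodium-phosphate cotransporter, was 1.84, 1.79 and 1.93 in DM against 0.927, 0.912 and 0.847 in NC, 2.07 times higher in DM, and that of Atp1b1 to Atp5f1b, the nuclear-encoded catalytic beta subunit of ATP synthase, was 1.56, 1.46 and 1.66 in DM against 0.759, 0.737 and 0.708 in NC, 2.13 times higher.

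Of the genes of glucose handling, Pck1 rose relative to the nuclear mean. Pck1 (chromosome 3, 171213936 to 171219871, plus strand), the cytosolic enzyme that turns oxaloacetate into phosphoenolpyruvate in gluconeogenesis, had counts of 69987, 66611 and 66821 in DM against 20522, 20158 and 24273 in NC. Its share of nuclear counts was 8.35, 8.40 and 8.25% in DM against 3.51, 3.43 and 3.63% in NC, with every DM library above every NC library. It was 2.31 times higher in DM after centring (log2 1.21, SE 0.039, edgeR adjusted p = 3.99e-14).

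Of the glutathione genes, Gpx3 rose and Gclc fell relative to the nuclear mean. Gpx3, the glutathione peroxidase that the proximal tubule secretes into plasma, took 12.4, 12.4 and 12.7% in DM against 9.30, 9.62 and 9.38% in NC (log2 0.37, SE 0.081, edgeR adjusted p = 0.000707). Gclc (chromosome 8, 85059051 to 85097468, plus strand), the catalytic subunit of the ligase that starts glutathione synthesis, had counts of 38880, 36184 and 39581 in DM against 77862, 77749 and 84984 in NC and took 4.64, 4.56 and 4.89% in DM against 13.3, 13.2 and 12.7% in NC. It had the most negative difference of the 16 nuclear genes, 2.85 times lower in DM (log2 -1.51, SE 0.088, edgeR adjusted p = 5.04e-11). The Gpx3 to Gclc ratio was 2.68, 2.72 and 2.60 in DM against 0.698, 0.727 and 0.738 in NC, and the Pck1 to Gclc ratio was 1.80, 1.84 and 1.69 in DM against 0.264, 0.259 and 0.286 in NC. DM libraries were above all NC libraries in both ratios, 3.70 and 6.59 times.

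Promoter windows of Pck1 and Gclc are printed because these had the highest and the lowest nuclear-relative difference among the 13 of 16 nuclear genes with a window in the RefSeq table (build GRCr8). Atp1b1 has none there. Each window runs from 250 bases before to 50 after the annotated start, 300 bases in all, in the direction of the gene. Capitals mark matches, on either strand, to the core of a cyclic AMP response element (ACGTCA), the core of an antioxidant response element (TGACNNNGC), a GC box (GGGCGG) or a TATA box (TATAAA), and no matches overlap in them.
Pck1, chr3:182348322-182348621, plus strand: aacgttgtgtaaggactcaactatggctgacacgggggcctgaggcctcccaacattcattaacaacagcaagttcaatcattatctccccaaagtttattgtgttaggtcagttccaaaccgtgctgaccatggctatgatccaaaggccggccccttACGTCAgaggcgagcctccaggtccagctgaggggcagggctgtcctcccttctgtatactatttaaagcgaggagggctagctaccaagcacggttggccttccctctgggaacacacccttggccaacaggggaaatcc
Gclc, chr8:87510226-87510525, plus strand: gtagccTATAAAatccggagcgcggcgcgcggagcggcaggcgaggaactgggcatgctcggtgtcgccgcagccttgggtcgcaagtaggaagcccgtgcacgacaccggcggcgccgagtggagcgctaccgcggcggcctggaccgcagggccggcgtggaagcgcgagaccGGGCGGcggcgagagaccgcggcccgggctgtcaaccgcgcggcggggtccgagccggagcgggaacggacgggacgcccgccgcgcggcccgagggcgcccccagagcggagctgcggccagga
The Pck1 window holds ACGTCA with its first base at -91 from the start, letters held by 7.94% of the 33469 windows of the table. The Gclc window holds a GC box at -75 and TATAAA at -244, held by 33.1% and 14.2% of windows. TGACNNNGC is in neither of them and in 12.1% of all windows. A match describes letters only.

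Of the cytochrome P450 genes, Cyp2c23 rose relative to the nuclear mean and Cyp4a2 did not pass. Cyp2c23, a rat arachidonic acid epoxygenase, had a share of nuclear counts of 3.58, 3.51 and 3.74% in DM against 2.47, 2.53 and 2.38% in NC (log2 0.52, SE 0.098, edgeR adjusted p = 0.000225). Cyp4a2, an omega-hydroxylase of fatty acids including arachidonic acid, took 10.7, 10.3 and 10.7% in DM against 10.2, 9.76 and 9.70% in NC and did not pass (log2 0.06, SE 0.055, edgeR adjusted p = 0.419). Rat Cyp4a2 has a near-identical paralog with which reads may be shared. Within a library the Cyp2c23 to Cyp4a2 ratio was 0.335, 0.343 and 0.351 in DM against 0.242, 0.259 and 0.246 in NC, 1.38 times higher in DM.

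Of the apical transporters of the proximal tubule, Slc3a1 fell and Slc34a1 did not pass. Slc3a1, the heavy chain of the transporter for cystine and dibasic amino acids, took 3.75, 3.70 and 3.80% in DM against 7.10, 7.02 and 7.13% in NC. The DM libraries lay within a narrow band, 1.94 times below NC after centring (log2 -0.95, SE 0.037, edgeR adjusted p = 2.01e-13). Slc34a1 took 4.22, 4.31 and 4.01% in DM against 3.81, 3.72 and 3.96% in NC (log2 0.09, SE 0.081, edgeR adjusted p = 0.419). The Slc34a1 to Slc3a1 ratio was 1.13, 1.17 and 1.05 in DM against 0.537, 0.531 and 0.556 in NC, 2.06 times higher in DM.

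Both oxidising enzymes of the list fell relative to the nuclear mean. Hao2, a peroxisomal 2-hydroxyacid oxidase, took 3.93, 3.84 and 4.02% in DM against 9.61, 9.20 and 9.09% in NC, 2.43 times lower in DM after centring (log2 -1.28, SE 0.046, edgeR adjusted p = 1.08e-13). Miox, the proximal tubule oxygenase that opens the ring of myo-inositol, took 3.84, 3.99 and 3.65% in DM against 4.70, 4.98 and 5.24% in NC (log2 -0.41, SE 0.088, edgeR adjusted p = 0.000707). Its deposited counts, 31112 ± 1397 in DM and 30599 ± 3984 in NC (SD, n = 3 each), differed by less than the spread between libraries. The Hao2 to Miox ratio was 1.02, 0.962 and 1.10 in DM against 2.05, 1.85 and 1.73 in NC, 1.82 times lower in DM.

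Of the amino acid enzymes, Aadat fell relative to the nuclear mean and Glul did not pass. Aadat, an aminotransferase that acts on kynurenine and on 2-aminoadipate, took 5.15, 4.99 and 5.39% in DM against 6.09, 6.15 and 5.91% in NC (log2 -0.26, SE 0.070, edgeR adjusted p = 0.00428). Glul, which makes glutamine, took 4.65, 4.86 and 4.41% in DM against 4.51, 4.69 and 4.90% in NC, with overlapping groups (log2 -0.05, SE 0.061, edgeR adjusted p = 0.464). Atp5f1b took 4.97, 5.27 and 4.64% in DM against 4.65, 4.61 and 4.74% in NC, also with overlap (log2 0.05, SE 0.064, edgeR adjusted p = 0.464). Eef1a1, the factor that brings aminoacyl-tRNA to the ribosome, took 6.09, 5.90 and 6.19% in DM against 5.79, 5.76 and 5.74% in NC (log2 0.04, SE 0.041, edgeR adjusted p = 0.447), and processed copies of the gene may share its reads. Across the genomes, counts of ATP6 per count of Atp5f1b were 14.0, 12.1 and 14.4 in DM against 42.8, 42.4 and 37.0 in NC, 3.02 times lower in DM. Of the 18 gene pairs compared this way, 14 (77.8%) had groups that did not overlap, each with an exact permutation p of 0.1 and 0.129 after adjustment over the 18 pairs, so no pair could pass.

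**Figure D3:**
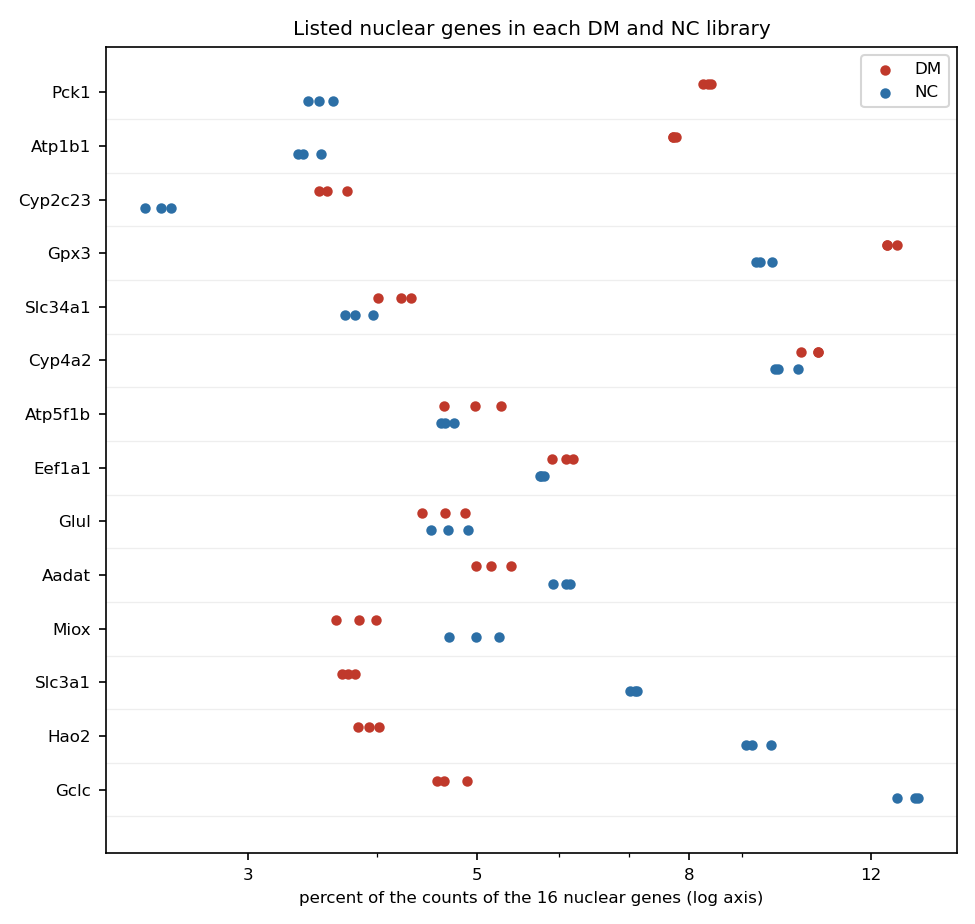
Nuclear genes as a percent of the counts of the 16 nuclear genes (log axis) in the 3 DM (red, upper) and 3 NC (blue, lower) libraries, ordered by the DM to NC ratio. Pck1 and Atp1b1 are at 7.72 to 8.40% in DM and 3.36 to 3.63% in NC, and Gclc is at 4.56 to 4.89% in DM and 12.7 to 13.3% in NC.

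When whole libraries were scaled, the sign of many genes depended on the scaling. Under TMM (trimmed mean of M-values) 16 of the 29 features differed by edgeR (55.2%), 14 higher (48.3%), all nuclear, and 2 lower (6.9%), COX2 and ND2. Scaling to the nuclear geometric mean gave 24 (82.8%; 5 higher and 19 lower). Median-of-ratios factors gave 27 (93.1%; 13 higher and 14 lower), and counts with no scaling gave 26 (89.7%; 10 higher and 16 lower). The median log2 fold change of the 29 features was 0.10 under TMM, -1.28 under nuclear scaling, -0.31 with median-of-ratios factors and -0.84 unscaled. The TMM count was 26, 24, 25 and 27 without DM replicate 1, DM replicate 3, NC replicate 1 and NC replicate 2, and 29 when DM and NC were fitted alone.

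Under all 4 scalings, 7 of 29 features (24.1%) passed in the same direction. Among them Pck1, Atp1b1, Cyp2c23 and Gpx3 were higher in DM, and COX2 and ND2 lower. Across the scalings Pck1 was 2.31 to 5.98 times higher (edgeR adjusted p of at most 3.22e-10), Atp1b1 2.20 to 5.71 times, Cyp2c23 1.43 to 3.71 times and Gpx3 1.30 to 3.36 times. COX2 was 1.31 to 3.41 times lower. The TMM log2 fold change was -0.39 for COX2 and -0.28 for ND2, and -0.78 to -0.72 and -0.67 to -0.62 without DM replicate 1, DM replicate 3, NC replicate 1 or NC replicate 2. Leaving out any 1 DM or NC library ended none of these calls under any of the 4 scalings except that of ND2, lost under 1 of the scalings without DM replicate 2 (edgeR adjusted p = 0.0666). The ND2 call was also lost under TMM when the unnamed feature was added to ND4 (edgeR adjusted p = 0.0613).

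Slc3a1 had a log2 fold change of 0.42 under TMM, where it passed, 0.01 with median-of-ratios factors, -0.51 unscaled and -0.95 with nuclear scaling. Its TMM call was lost in 5 of the 6 fits without 1 DM or NC library: the value was 0.01 to 0.06 without DM replicate 1, DM replicate 3, NC replicate 1 or NC replicate 2 (edgeR adjusted p of 0.65 to 0.96) and 0.40 without DM replicate 2 (0.0501). Aadat and Miox passed as higher under TMM (1.11 and 0.96) and as lower relative to the nuclear genes (-0.26 and -0.41). Their TMM values were 0.72 to 0.76 and 0.56 to 0.64 without those same 4 libraries, 1 at a time. Glul was at 1.32 under TMM and -0.05 with nuclear scaling. Cyp4a2, Slc34a1, Atp5f1b and Eef1a1, which did not pass relative to the nuclear genes, passed as higher under TMM (1.43, 1.46, 1.43 and 1.41), with median-of-ratios factors (1.02, 1.06, 1.02 and 1.00) and unscaled (0.50, 0.53, 0.49 and 0.48). Gclc was at -0.14 under TMM and did not pass (SE 0.080, edgeR adjusted p = 0.141), at -0.55 with median-of-ratios factors, -1.07 unscaled and -1.51 with nuclear scaling. Under TMM it passed as lower, at -0.54 to -0.48, without DM replicate 1, DM replicate 3, NC replicate 1 or NC replicate 2 (edgeR adjusted p of 3.19e-05 to 0.000104), and at -0.39 when DM and NC were fitted alone (9.08e-06). Hao2 was at 0.10 under TMM and did not pass (edgeR adjusted p = 0.561). It was at -0.31 with median-of-ratios factors, -0.84 unscaled and -1.28 with nuclear scaling. The direction of Slc3a1, Aadat, Miox, Glul and Hao2 holds only relative to the scaling named.

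**Figure D4:**
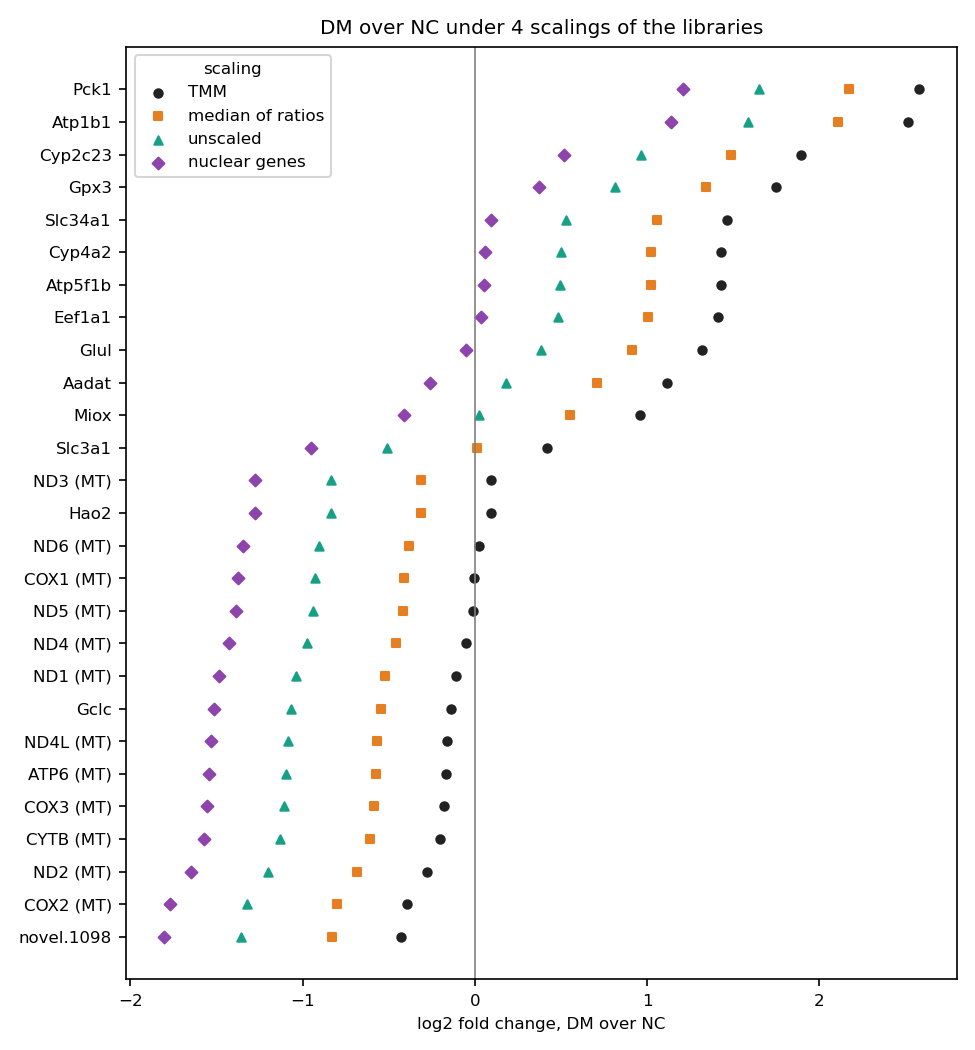
Log2 fold change of DM over NC for the features described, under 4 scalings of the libraries, ordered by the TMM value; MT marks mitochondrial genes. Changing the scaling shifts all features sideways together, Pck1 lying at 2.58 under TMM and 1.21 with nuclear scaling, and COX2 at -0.39 and -1.77.

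The disease contrast was read again in rats given flour by setting HP against NH, which share no library with DM and NC. Mitochondrial counts per nuclear count were 7.82, 6.05 and 5.58 in HP against 21.3, 16.8 and 18.9 in NH, 2.95 times lower in HP (log2 difference -1.56, SE 0.18, two-sided exact permutation p = 0.1). HP replicate 1 stood above the other HP libraries, and NH replicate 1 above the other NH libraries. Under TMM, 22 of 29 features differed (75.9%; 16 higher, 55.2%, and 6 lower, 20.7%). Relative to the compartment, a comparison added after the data were seen, 13 of 28 genes differed (46.4%; 6 higher, 21.4%, and 7 lower, 25%). Of the 12 genes called between DM and NC, 9 (75%) were also called between HP and NH, all in the same direction, which is 69.2% of those 13. Among them, Pck1, Atp1b1 and Cyp2c23 were higher in both contrasts, and Gclc, Hao2, Slc3a1 and Miox lower, relative to the nuclear mean. In HP over NH, Pck1, Atp1b1 and Cyp2c23 were higher under TMM too. TMM also called Gclc (log2 0.74), Hao2 (0.54), Slc3a1 (0.71) and Miox (0.73) higher there, the opposite direction. With median-of-ratios factors or no scaling, no nuclear gene was called lower in HP over NH. Some ratios that separated DM and NC overlapped in HP and NH: Slc34a1 to Slc3a1 was 0.744, 0.916 and 0.944 in HP against 0.746, 0.887 and 0.800 in NH, and COX2 to COX1 was 0.260, 0.206 and 0.206 in HP against 0.254, 0.218 and 0.230 in NH.

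Relative to the nuclear mean, Pck1 and Gclc differed more strongly in DM over NC than in HP over NH, and for Atp1b1 no such difference was detected. Atp1b1 stood at 1.14 (log2, relative to the nuclear mean) in DM over NC and 1.02 in HP over NH, and the difference between them was 0.12 (SE 0.075, edgeR adjusted p = 0.204). Pck1 was at 1.21 in DM over NC and 0.56 in HP over NH, a difference of 0.65 (SE 0.055, edgeR adjusted p = 7.28e-08). Its mean share of nuclear counts was 8.33% in DM and 8.31% in HP, against 3.52% in NC and 5.42% in NH. Gclc was at -1.51 in DM over NC and -0.64 in HP over NH, a difference of -0.88 (SE 0.12, edgeR adjusted p = 3.23e-05). Its mean share was 4.70% in DM and 6.06% in HP, against 13.1% in NC and 9.03% in NH. In all, 10 of 28 genes (35.7%) differed between the contrasts relative to the compartment, 4 more positive (14.3%) and 6 more negative (21.4%) in the water-fed one. Under TMM 1 of 29 features (3.45%), Gclc, did so (log2 -0.88, SE 0.11, edgeR adjusted p = 2.88e-05), and 8 had an unadjusted p under 0.05. With that scaling Gclc did not pass in DM over NC (-0.14) and was called higher in HP over NH (0.74, edgeR adjusted p = 3.15e-07). The Pck1 difference between the contrasts did not pass under TMM (log2 0.64, edgeR adjusted p = 0.0706).

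**Figure D5:**
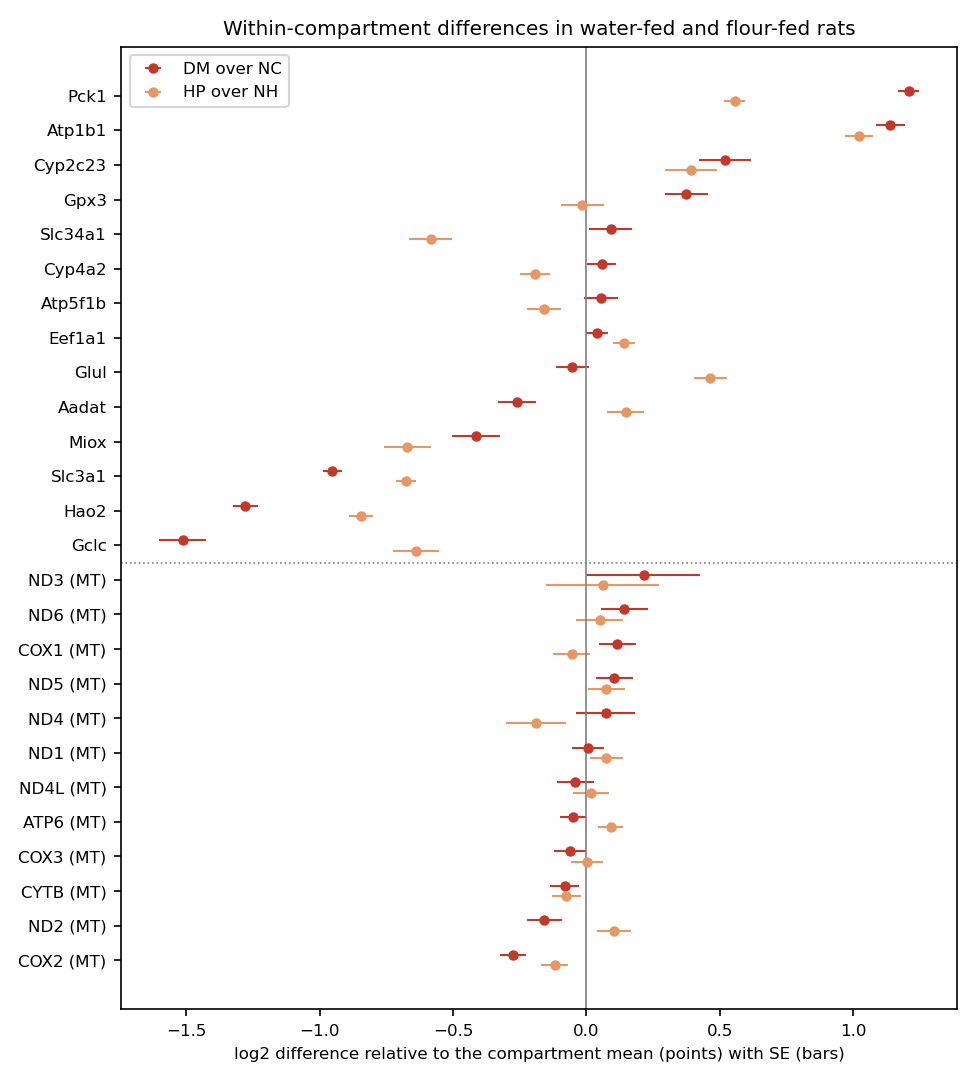
Log2 difference of named genes relative to their compartment mean, for DM over NC (red, upper) and HP over NH (orange, lower), with SE bars from edgeR fits; the dotted line separates nuclear genes from mitochondrial genes (MT). Atp1b1 lies at 1.14 in DM over NC and 1.02 in HP over NH, and Gclc at -1.51 in DM over NC and -0.64 in HP over NH.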

How the data were processed

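Kidney RNA (1 µg per library, NEBNext Ultra RNA kit, which does not mark strand) gave 18 libraries for sequencing, with 3 replicates for each of the 6 groups, per the labels' protocols. CASAVA 1.7, Bowtie 0.12.2 and the mouse build mm8 appear, without roles, among the submitters' processing notes. No source used here states the rat build, the annotation or the read counter, so positions are those of the deposited table. Its values were taken as counts, from the values themselves: the table is titled FPKM, but all 522 deposited values are whole numbers, and as FPKM the listed features alone would need 5.88 to 12.1 times a library. Library depth is unknown.

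Groups and replicate numbers came from sample titles. edgeR 4.0.16 (R 4.3.3; quasi-likelihood, 1 fit of all 18 libraries, no dispersion trend or filter, two-sided, Benjamini-Hochberg over all features of a fit, threshold 0.05) was run with TMM factors or with the log geometric mean of a gene's compartment as offset. A SE was taken as the absolute log2 value over the root of F. Alternatives were DESeq2 1.42.0, limma 3.58.1 on log2(scaled count + 1), other scalings, the edgeR filter on low counts, DM and NC alone, and leaving out single libraries. Ratios within a library had two-sided exact permutation tests. The edgeR steps were tested on simulated data, in which lowering the mitochondrial genes alone led to calls of nuclear genes under TMM, and the compartment offsets called some unchanged genes, more often where the changes put in were larger. Replicates differed beyond sampling noise (chi-square per degree of freedom 104 to 385 in DM and NC, 233 to 3660 in HP and NH). Genes shown in all 6 libraries passed a test or had the highest or lowest value of their list. Members and lists were chosen with earlier results of these data known. The groups given lower and middle doses entered only the shared fit. Some listed genes were fitted and counted with the rest but are not reported here.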

Additional observations from a re-analysis of the deposited data

Results flagged for a closer look

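The difference between diabetic and healthy kidneys was not the same in water-fed and flour-fed rats for 10 of the 28 named genes read relative to their compartment. This was tested as DM over NC minus HP over NH in edgeR after the data were seen. The values of this difference, in log2 and with edgeR's adjusted p, were positive for Slc34a1 (0.67, adjusted p = 0.000127), Pck1 (0.65, adjusted p = 7.28e-08), Gpx3 (0.39, adjusted p = 0.0124) and Cyp4a2 (0.25, adjusted p = 0.0183). They were negative for Gclc (-0.88, adjusted p = 3.23e-05), Glul (-0.52, adjusted p = 0.000127), Hao2 (-0.43, adjusted p = 4.96e-05), Aadat (-0.41, adjusted p = 0.00311), Slc3a1 (-0.28, adjusted p = 0.000334) and the mitochondrial gene ND2 (-0.26, adjusted p = 0.0323). Relative to the compartment, Slc34a1 (0.09 in DM over NC and -0.58 in HP over NH), Glul (-0.05 and 0.46) and Cyp4a2 (0.06 and -0.19) passed only in HP over NH. Gpx3 and Aadat passed only in DM over NC, and ND2 passed in neither contrast. Gclc was also the single feature for which the contrasts differed under TMM scaling (-0.88, edgeR adjusted p = 2.88e-05). With TMM, however, Gclc did not pass in DM over NC (-0.14) and was called higher in HP over NH (0.74). ND2 lost its call without HP replicate 1, NH replicate 2 or NH replicate 3 (edgeR adjusted p = 0.0904, 0.0874 and 0.0707), and Cyp4a2 lost it without NH replicate 3 (0.0566). Gpx3 was at 0.25 without NH replicate 1, where it still passed (0.00773); Gpx3 took 13.6, 12.4 and 12.6% of nuclear counts in HP against 14.5, 11.2 and 11.6% in NH. Slc34a1 took 3.57 to 4.39% of nuclear counts in HP against 5.11 to 6.62% in NH, and 4.01 to 4.31% in DM against 3.72 to 3.96% in NC. Glul took 4.54 to 4.91% in HP against 2.97 to 3.65% in NH, and 4.41 to 4.86% in DM against 4.51 to 4.90% in NC.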

How the results depend on the processing

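Read relative to the compartment, DM against NC gave 12 genes in every fit without 1 DM or NC library, 13 with compartment sums and 17 with DM and NC alone. Without single libraries, HP against NH gave 13 to 18 and the difference between contrasts 8 to 12. The log2 ratio of mitochondrial to nuclear counts was -1.51 to -1.43 without single libraries, -1.49 with geometric means, -1.33 without Gpx3 and Pck1 and -1.54 without COX1. Pair ratios without overlap numbered 14 to 17. Against 16 features under TMM, DM against NC gave 27 with median-of-ratios factors and with DESeq2, 26 unscaled, 29 with DM and NC alone, 14 to 27 without single libraries, and 16 with limma or the filter. For HP against NH, TMM gave 22 (16 higher, 6 lower), nuclear scaling 27 (6 higher, 21 lower), median-of-ratios factors 24 (12 higher, 12 lower) and no scaling 23 (11 higher, 12 lower). Beside 1 feature under TMM, the difference between contrasts gave 5 with median-of-ratios factors, 7 unscaled, 9 with nuclear scaling, 7 with DESeq2 and 1 to 5 without single libraries; the cause was not tested. Replicate numbers did not pair DM with NC (correlation of same-numbered deviations 0.533, -0.274 and -0.263). For HP with NH these correlations were 0.897, 0.527 and 0.0921. With the replicate block, DM against NC gave 17 features under TMM and 13 genes by compartment, with ND2 added (edgeR adjusted p = 0.0316). Under TMM the block gave 22 for HP against NH and 3 for the difference between contrasts. By compartment, the block was not fitted for those 2. The ratio was -1.47 with the block.

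Signs under TMM turned with nuclear scaling for Hao2 (-1.28), Aadat (-0.26), Slc3a1 (-0.95), Miox (-0.41) and Glul (-0.052), and unscaled for Hao2 (-0.84) and Slc3a1 (-0.51). They also turned for ND3 and ND6, at 0.10 and 0.02 under TMM, with nuclear scaling (-1.28 and -1.35), unscaled (-0.84 and -0.90) and with median-of-ratios factors (-0.31 and -0.38). Hao2, at 0.10 under TMM, was at -0.31 with median-of-ratios factors, -0.31 with DESeq2, -0.16 with DM and NC alone and -0.32 to 0.11 without single libraries. By compartment and without single libraries, ND1 was at -0.033 to 0.032 and ND4 at -0.025 to 0.20, and ND4 was at -0.14 with the unnamed feature added. Library factors rest on 29 features, and the unknown depth gives no scale outside them.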
